A study of Mus musculus with 18 samples.

Results

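The cytosolic ribosome of the mouse is built from ribosomal RNA and a set of ribosomal proteins, and the genes encoding those proteins were examined here. Genes were chosen by name alone: every gene of the mRNA matrix named Rpl or Rps followed by a number, with or without the letters that mark copies, together with Rplp0, Rplp1 and Rplp2. Pseudogenes and the Rps6k kinases were left out. The rule found 81 genes among the 20275 of the matrix, 31 of the small (40S) and 50 of the large (60S) subunit. The 81 genes lie on 19 chromosomes, X included. A UMI of each of them was found in all 9 libraries.

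Ribosomal proteins of the small subunit help to read the message, and those of the large subunit surround the site of peptide bond formation. Most of these messages begin with a run of pyrimidines, the TOP (terminal oligopyrimidine) element, through which mTOR signalling and LARP1 set their translation together. Haematopoiesis is sensitive to ribosome supply: loss of 1 copy of a ribosomal protein gene such as RPS19, RPL5 or RPL11 causes Diamond-Blackfan anaemia, in which red cell precursors fail.

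The study sequenced single cells of C57B6/J bone marrow (BM) from embryos of days E16.5 and E18.5, from newborns (postnatal day 0, P0) and from adults, to follow the marrow while haematopoietic stem cells come to occupy it. No genotype or treatment of the animals differed between groups. Haematopoietic progenitors (HPs) were sorted as lineage-negative Kit-positive cells and stroma as CD45-negative Ter119-negative cells. There were 2 HP libraries at E16.5 and 1 for each other stage, and 1 stromal library per stage, which gave 5 HP and 4 stromal libraries. Each library was a pool of animals. The fetal and neonatal (perinatal) marrow came from whole skeletons without the head, and the adult marrow from long bones, pelvis and spine, so stage and source of bone cannot be told apart. Stromal cells were digested with collagenase and DNase, while HPs were released by crushing, and red cells were lysed in adult samples only. Compartment and adult stage therefore cannot be told apart from these handling steps.

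Cells with at least 1000 UMIs were used, 52231 of the 56201 deposited. The libraries kept between 544 and 12613 cells and between 13965023 and 194084293 UMIs, with a median of 8948.5 to 23731 UMIs per cell. Library pairs shared 1102 barcode sequences in all. Leukocyte markers summed to 2848 to 10344 CPM (UMIs of a gene scaled to a common library total) in HP libraries. In stroma they summed to 3.23 to 90.7 CPM, highest in the adult. The paper states that blood cells were taken out of its processed stromal data, so these low sums need not show how pure the sort was. Fibroblast markers summed to at most 5.48 CPM in HP libraries. The following 2 values set single libraries apart: Gm42418, a gene overlapping ribosomal RNA sequence, reached 63383 CPM in adult HPs against 1286 to 8101 elsewhere, and the nuclear RNA Malat1 reached 26760 CPM in adult stroma against 4290 to 18132 elsewhere. The share of UMIs is also given without Gm42418, and the part of Malat1 in the results was not tested. Fos had 1588 to 3115 CPM in stroma and 28.7 to 142 CPM in HPs, and its relation to handling was not tested.

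Ribosomal protein genes supplied between 24.0% and 30.9% of all UMIs in 8 libraries and 11.9% in adult stroma. Their share of the summed UMIs was 25.9% and 24.9% in both E16.5 HP libraries, 29.4% in E18.5 HPs, 30.9% in P0 HPs and 30.5% in adult HPs. The stromal libraries had 29.5%, 24.0%, 25.2% and 11.9% in order of stage. The adult stromal library was therefore below all 8 others, whereas the adult HP library lay inside the range of the perinatal HP libraries. With mitochondrial and haemoglobin genes and Gm42418 taken out of the total, adult HPs had 33.5% and lay above the perinatal HP libraries, at 25.9% to 31.9%, and adult stroma, at 12.4%, was still the lowest. Exact binomial 95% intervals, which cover counting error only, were no wider than that of E16.5 HP replicate 1, 25.9% to 26.0%. Only the E16.5 HP pair shows how far libraries of the same kind lie apart, and its libraries differed in their mixture of cells. The authors' cluster Mono/Mast held 160 of the 544 cells of replicate 1 and 141 of the 4733 of replicate 2. In the 6 clusters with at least 20 cells in both, replicate 1 minus replicate 2 was -0.309 to 4.77 points. The totals can therefore understate the distance between libraries. A share is relative, and fewer molecules from these genes cannot be told apart from more of the others by it.

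**Figure D1:**
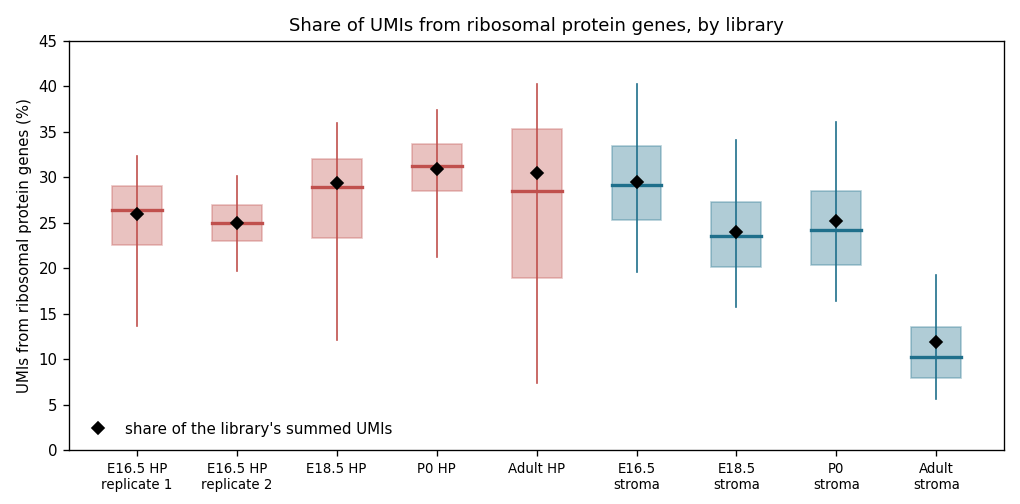
Share of UMIs from the 81 ribosomal protein genes (%, vertical axis) in the cells of each of the 9 libraries, with the 5th to 95th percentile of cells as a thin line, the 25th to 75th as a box, the median cell as a thick bar and the share of the summed UMIs as a black diamond. Adult stroma stands at 11.9%, below all other libraries, which lie between 24.0% and 30.9%.

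The spread over cells differed from library to library. Its SD was 3.40 to 7.46 percentage points in perinatal HPs, 10.2 in adult HPs, 5.66 to 6.26 in perinatal stroma and 4.58 in adult stroma. In adult HPs the middle 90% of cells ranged from 7.35% to 40.2%. The median cell held 4825 to 6832 UMIs from these genes in perinatal HPs, 2217 in adult HPs, 3626 to 3840 in perinatal stroma and 1158 in adult stroma. Small-subunit genes took 42.9% to 45.4% of the members' UMIs in every library.

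Against the mean of the perinatal libraries, adult stroma was lower by 14.3 percentage points (perinatal SD 2.89 over 3 libraries), and adult HPs were higher by 2.67 points (perinatal SD 2.82 over 4 libraries). The HP difference was thus smaller than that SD, but it depended on the summary: it was -0.155 points when each cell rather than each UMI had the same weight, and 4.64 points with mitochondrial and haemoglobin genes and Gm42418 taken out of the total. In stroma the same settings gave -14.9 and -15.0 points. The share is a sum over chosen genes, so it was given no p-value. Between compartments the order changed with stage, with HPs minus stroma at -4.08 points for E16.5, then 5.37, 5.68 and, in adults, 18.5 points.

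Cells that the deposited table assigns to S phase had the highest share in all 9 libraries, by 0.388 to 6.22 points over G1 cells. The difference was largest in E18.5 HPs, 30.5% against 24.3%, and in adult stroma, 17.3% in 103 S phase cells against 11.7% in 6041 G1 cells. The phase call reads mRNA of the same cells, so it is not an independent measure. Depth moved with the share in some libraries. In adult HPs, the cells with the fewest UMIs had 21.6%, those in the middle 26.7% and those with the most 33.1%, when cells were divided equally. In P0 HPs the same parts had 31.0%, 31.8% and 30.3%, without such an order. In adult stroma they had 10.8%, 10.2% and 13.0%, all of them below every part of the other libraries.

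The share was then read per cluster, with the cluster codes deposited by the authors and at least 20 cells, which gave 70 HP and 64 stromal clusters. Most HP clusters, 61 of 70, lay between 20% and 34%. The lowest had neutrophil and monocyte codes. The code Neu2 had 4.47% at E18.5 (71 cells) and 4.66% at P0 (27 cells), and adult Neu3 had 11.3% (521 cells). The top genes of both Neu2 clusters were Stfa2l1, Stfa2 and Retnlg, those of a late neutrophil, and adult Neu3 was led by Chil3, Camp, Ngp and Ltf, which fill neutrophil granules. E16.5 Neu1, led by the early granule genes Fcnb, Elane and Prtn3, was at 21.3% (74 cells). After the neutrophils came 3 E18.5 monocyte codes: Mono2 at 15.8%, with the macrophage genes Crybb1, Fcrls and P2ry12 in front, Mono1iv at 17.3% and Mono1iii at 18.7%.

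Of the 5 highest HP clusters 4 were adult, and 4 had progenitor codes. Adult EryP2, led by haemoglobins and Car1, a carbonic anhydrase of the erythroid lineage, had 36.4%. Adult MegP2, with Pf4 and Itga2b of the megakaryocyte lineage, had 35.7% and adult HSPC5, led by Dntt, Flt3 and Hlf, had 35.3%. P0 HSPC2 followed at 33.7% and adult Mono5 at 33.6%. These 5 clusters differed among themselves by less than the SD over the cells of any adult cluster among them, 5.15 to 7.34 points. That SD describes single cells and does not measure whether the order of the clusters would hold.

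Stromal clusters split by stage. Those of a stage, the 15 adult ones included, came from the same library, so they are not independent observations. The 49 perinatal clusters ranged from 18.8% to 38.3% with a median of 24.7%, and 14 of the 15 adult clusters from 7.72% to 16.1% with a median of 9.90%. The 2 ranges did not overlap. The lowest 5 were adult CARs at 7.72%, led by Cxcl12 and Adipoq of the CXCL12-abundant reticular cells, the fibroblast codes F10 at 8.47%, F12 at 8.51% and F13 at 8.61%, and Osteo at 9.20%, led by the osteoblast gene Bglap. The only adult cluster among the perinatal values was P1 at 26.9% (122 cells).

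The highest stromal clusters were E16.5 P-2 at 38.3%, E16.5 P1i at 36.6%, P0 P3 at 34.7%, E18.5 P1 at 32.8% and the cartilage code C1 of E16.5 at 30.4%. The table of cells does not spell out the letter P of these codes. The 4 P codes in this group, and adult P1, were led by genes of the skeletal muscle lineage such as Myog, Msc, Actc1, Cdh15 or Myf5, so they are called here by those genes. The P codes P2 and P4, led by Rgs5, Acta2 or Myh11 of pericytes and smooth muscle, were far lower, at 22.0% (E18.5), 22.0% (P0) and 9.50% (adult).

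**Figure D2:**
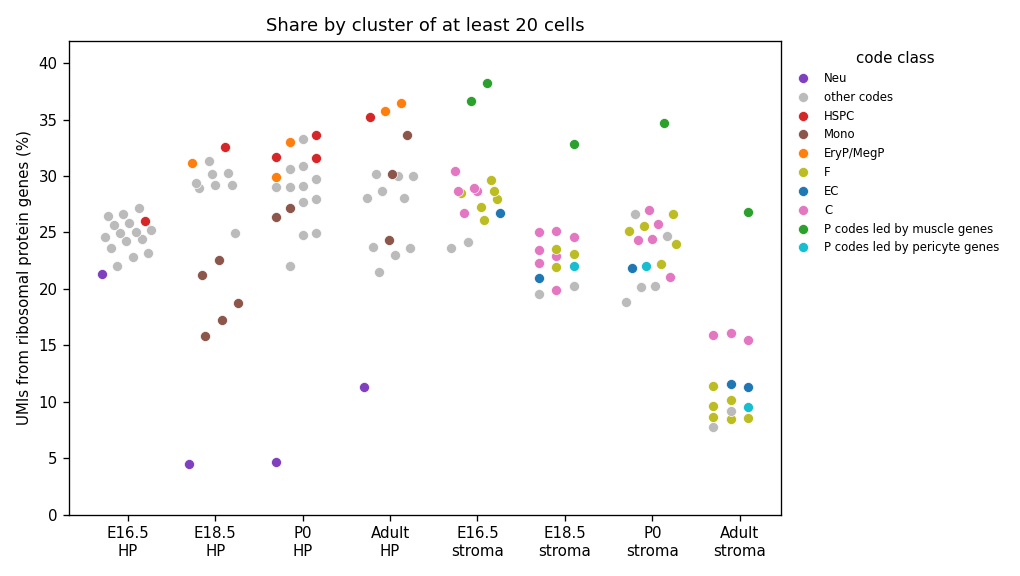
Share of UMIs from ribosomal protein genes (%, vertical axis) in each cluster of at least 20 cells, by compartment and stage, coloured by code class (EC endothelial, F fibroblast, C cartilage). Neutrophil codes lie lowest among HPs, muscle-led P codes highest among stroma, and 14 of 15 adult stromal clusters lie between 7.72% and 16.1%.

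Code classes present at 3 or 4 stages were then followed over the stages, first in stroma. Endothelial codes had 26.7%, 21.0% and 21.8% over the perinatal stages and 11.3% to 11.6% in the 2 adult codes. Fibroblast codes had medians of 28.2%, 23.1%, 25.1% and 9.13%, and cartilage codes 28.7%, 23.4%, 24.4% and 15.9%. Some F codes carried genes of other lineages: E16.5 F4 was led by pericyte genes such as Kcnj8, P0 F3i by muscle genes such as Acta1 and Ckm, and adult F9 had the osteolineage list as its highest. Schwann cells, which had no adult cluster of this size, had 23.6%, 19.5% and 20.1%. Muscle-led codes had 36.6% to 38.3%, 32.8%, 34.7% and 26.9%. The pericyte-led codes, given above, had nearly equal values at E18.5 and P0. Thus each of these classes with an adult cluster was lowest in the adult, where all clusters came from the same library.

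Among HPs the classes did not share an order. HSPC codes had 26.0% and 32.6% in the fetal libraries, 31.6% to 33.7% in newborns and 35.3% in adults. Erythroid and megakaryocyte codes had medians of 31.2%, 31.4% and 36.1% from E18.5 on. B cell codes had 24.3%, 29.2%, medians of 27.0% and 23.3%. TCell codes had a median of 26.0% at E16.5 and 30.1% and 27.9% at E18.5 and P0, and the adult code T/NK had 28.0%. The codes after E16.5 were led by genes of natural killer cells such as Xcl1, Klra5 or Ncr1, so these values do not follow 1 cell type. Eosinophil and basophil codes had 25.8%, 27.2%, 29.1% and 30.2% as medians, and mast cell codes 24.6%, 30.3%, 25.9% and 25.8%. The E16.5 values pool both replicates, but only 6 codes had at least 20 cells in replicate 1. These were Bcell1, HSPC1, Mono/Mast and the mast cell codes. The E16.5 values of the TCell, DC and Eos/Bas codes therefore come mostly from replicate 2, so their differences from later stages rest largely on that library. The E16.5 mast cell codes had 27.2% to 28.6% in replicate 1 and 23.4% to 24.2% in replicate 2, above and below the P0 and adult medians. Myeloid progenitors had between 29.0% and 31.3% from E18.5 to the adult. Monocyte codes had medians of 18.7%, 26.8% and 30.2% from E18.5 on, and the codes DC1, DC2 and DC3 had 22.8%, 29.2% and 24.8% at the perinatal stages. These values follow the codes, and the leading genes of several clusters go against theirs. Among them, E16.5 HSPC1 was led by dendritic cell genes, E18.5 DC2 and P0 Mono1 by the osteoclast genes Ctsk and Acp5, and E18.5 MyP1 by genes such as Hlf and Hmga2, also among the leading genes of HSPC codes. Adult MyP4 was led by haemoglobins, P0 Mast4 by collagen genes and adult Mast4ii by macrophage genes.

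Each gene was next compared between code groups and the other cells of the same library. The clusters had been made by the authors from all genes, members possibly included, so these counts are descriptions. The muscle-led P codes and the Neu codes were also those with the highest and lowest shares above. Their counts of members in that direction therefore follow in part from the sum and add no separate support. The summed share was also higher in HSPC codes and lower in endothelial codes than in the other cells of each library with them. The same limit therefore holds for the counts of those codes. In the muscle-led P codes, 78 of 80 members with at least 10 CPM were higher than in the other stromal cells in all 4 libraries, against 25.2% of all genes. The shares were 37.1% against 28.4%, 32.8% against 23.7%, 34.7% against 24.6% and 26.9% against 11.8% in order of stage. In Neu codes, 73 of 79 members were lower than in the other HPs of all 4 libraries with such a code, against 46.2% of genes, with a median log2 ratio of -2.16 for members and -0.83 for all genes. HSPC codes, E16.5 HSPC1 included, were smaller in their difference: 42 of 79 members were higher in all 5 HP libraries, against 17.8% of genes, with a median log2 ratio of 0.11. For endothelial codes, 45 of 80 members were lower in all 4 stromal libraries, against 25.5% of genes, at a median of -0.16.

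Levels of single members covered 4 orders of magnitude. The 3′ libraries count 1 tag per molecule, so CPM was not divided by gene length. Among the 5 highest levels over all cells were those of Rpl13 (6383 CPM), Rps24 (5651), Rps27a (5502), which is made as a fusion with ubiquitin, and Rpl23 (5337). Rpl13 lies at chromosome 8, 123102350 to 123105244 on the plus strand of GRCm38. Its level was 6150 and 8617 CPM in the E16.5 HP pair, 6482, 7616 and 7037 CPM in the later HP libraries in order of stage, and 7266, 5388, 5835 and 3148 CPM in stroma. Its lowest library was thus adult stroma, and its highest E16.5 HP replicate 2.

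The lowest members were Rpl3l (0.417 CPM), Rpl39l (8.40), Rpl7l1 (96.0), Rpl13a (337) and Rps27l (476). Of these, 4 are copies of other members, and Rpl13a is better known for its role in silencing inflammatory messages. The 71 members between these groups ranged from 476 to 5216 CPM with a median of 3272. The 10 highest members took 21.6% of the members' UMIs and the 20 highest 38.2%, so no single gene dominated the sum. Reads of members can also be lost to or gained from processed pseudogenes, which are numerous for these genes, and the way the counter settled such reads bears on the levels of Rpl13a and Rpl27 (476 CPM) as of others.

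At the median, the proportions of members varied less within a library than over all clusters. As a share of the members' UMIs, a member varied over the 134 clusters by a coefficient of variation (CV) of 21.6% at the median, and by 8.61% over the clusters of 1 library. The latter was 27.7% for Rps27l and 22.2% for Rpl7l1. Neu codes also departed from the other cells of their library in these proportions. Their median log2 ratio ran from -1.01 for Rps2 and -0.66 for Rpl10a to 0.80 for Rps9 and 0.84 for Rps27a. Over the libraries the values were -1.45 to 0.04 for Rps2, -1.13 to -0.09 for Rpl10a, -0.12 to 1.43 for Rps9 and 0.30 to 1.49 for Rps27a. Rps2 and Rps9 thus did not depart in the same direction in every library. The smallest CVs belonged to Rpl27a, Rps13, Rps10, Rps16 and Rpl23, 8.55% to 10.9%. Among the members with at least 10 CPM, for which a CV was taken, the largest belonged to Rps29 (43.4%), Rps27 (41.8%), Rpl7l1 (41.7%), Rps28 (34.3%) and Rpl37a (31.4%). Apart from Rpl7l1, these are among the shortest genes of the group, with coding lengths of 168 nt for Rps29, 207 nt for Rps28, 252 nt for Rps27 and 276 nt for Rpl37a.

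The bases around the annotated start are given for 9 members on which the comparisons turn, the genes Rps27, Rps28, Rpl35, Rpl37a and Rpl39 and the copies Rps27l, Rpl39l, Rpl22l1 and Rpl7l1, from 10 bases before to 20 bases from the RefSeq start on GRCm38.p6. Capitals mark unbroken runs of at least 5 bases that are C or T on the strand of the gene; other strands and motifs were not searched.
Rps27 (chr3:90213629-90213658, minus strand): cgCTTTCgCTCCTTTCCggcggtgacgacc
Rps27l (chr9:66946076-66946105, plus strand): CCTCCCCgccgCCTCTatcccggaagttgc
Rps28 (chr17:33824543-33824572, minus strand): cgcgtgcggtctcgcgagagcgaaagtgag
Rpl35 (chr2:39005112-39005141, minus strand): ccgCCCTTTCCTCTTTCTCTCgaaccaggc
Rpl39 (chrX:37085203-37085232, minus strand): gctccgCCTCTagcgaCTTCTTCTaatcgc
Rpl39l (chr16:10170218-10170247, plus strand): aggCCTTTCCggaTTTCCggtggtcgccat
Rpl37a (chr1:72711250-72711279, plus strand): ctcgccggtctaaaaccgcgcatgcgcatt
Rpl22l1 (chr3:28805498-28805527, plus strand): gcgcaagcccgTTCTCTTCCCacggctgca
Rpl7l1 (chr17:46782637-46782666, minus strand): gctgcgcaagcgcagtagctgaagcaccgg
The longest run in these windows was 18 bases in Rpl35, 10 in Rpl22l1, 9 in Rps27, 8 in Rpl39 and 7 in Rps27l and Rpl39l, and Rps28, Rpl37a and Rpl7l1 had none. The runs of 7 bases in Rps27l and Rpl39l lie in the 10 bases before the RefSeq start. The Rpl37a window ends before the gene start of the GENCODE annotation, 72711290. The windows therefore do not show whether a message begins with a TOP element. Rps27l has 2 windows in the RefSeq table, of which 1 is shown. Of 32851 windows of all genes, 46.4% held such a run. A window was available for 61 of the 81 members, 75.3%, too few for a count over the members.

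The 2 E16.5 HP libraries differed by coding length. The 4 short genes with the CVs given above were lower in replicate 2 than in replicate 1: Rps29 had 1820 against 2906 CPM, Rps27 811 against 1586, Rps28 651 against 1396 and Rpl37a 1596 against 3456. Long genes were higher, as Rpl13 with 8617 against 6150 CPM and Rplp0, the stalk protein that binds elongation factors, with 7495 against 4310. Over the 78 members with at least 200 CPM, the log2 ratio of replicate 2 to replicate 1 had a Spearman correlation of 0.92 with coding length, and of 0.60 with annotated transcript length. Across 2741 other genes, many of them longer than any member, the correlation with coding length was -0.08. The points share 2 libraries, and genes are not independent replicates, so no test was made.

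The 78 members were divided by coding length into 20 of 75 to 366 nt, 20 of 369 to 453 nt, 19 of 456 to 612 nt and 19 of 612 to 1257 nt, a grouping chosen after the values had been seen. Between replicates 2 and 1, the median log2 ratio was -0.94 in the shortest group, -0.41 and 0.11 in the next groups and 0.49 in the longest. Genes that are not members and code for at most 400 nt (331 genes) had a median of -0.09. Those of 400 to 600 nt and of 600 to 900 nt had 0.24 and 0.25, and those above 3000 nt had -0.11. Other short genes were thus also below those of 400 to 900 nt, to a smaller extent than short members.

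**Figure D3:**
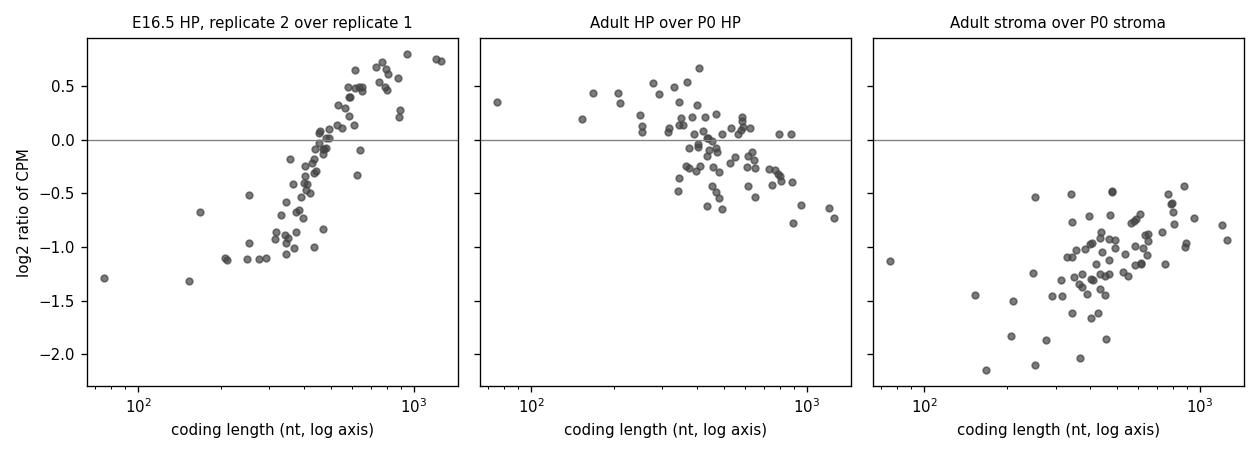
Log2 ratio of CPM, with 1 CPM added, between 2 libraries (vertical axis) against coding length (nt, log axis) for the 78 ribosomal protein genes of at least 200 CPM, each point a gene, for pairs of libraries named above the panels. In the E16.5 HP replicates the ratio rises with length, with a Spearman correlation of 0.92.

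The summed level of the 20 shortest members was divided by that of the 19 longest to give a short to long ratio per library. It was 0.890 in E16.5 HP replicate 1 and 0.354 in replicate 2, 1.14 in E18.5 HPs, 0.979 in P0 HPs and 1.35 in adult HPs. In stroma it was 1.00, 1.19 and 1.11 from E16.5 to P0 and 0.799 in the adult. Replicate 2 was therefore apart from all other libraries, and its total share, 24.9%, was near that of replicate 1 while short and long genes lay in opposite directions.

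The E16.5 HP replicates also differed in this ratio cluster by cluster. All 16 clusters of replicate 2 lay between 0.324 and 0.396, and the 6 clusters of replicate 1 between 0.816 and 0.928. In the 6 codes with at least 20 cells in both, the ratio was lower in replicate 2 each time, as in HSPC1 with 0.351 against 0.853 and Mast1 with 0.372 against 0.905. The members' total share differed by -0.309 to 4.77 points between the replicates in these codes and was higher in replicate 1 in 5 of 6. Ranges were 1.09 to 1.59 in E18.5 HPs, 0.874 to 1.32 in P0 HPs, 0.953 to 1.04, 1.09 to 1.23 and 0.544 to 1.16 in perinatal stroma and 0.703 to 0.867 in adult stroma. Adult HPs had the widest range, from 0.723 in Mast4i (33 cells, a median of 1160 UMIs) to 1.90 in Pre/Pro-B2. The lowest P0 stromal cluster was UD3 at 0.544, led by the melanocyte genes Dct, Tyrp1 and Pmel and with a median of 2039 UMIs, and the other P0 stromal clusters can be read from the plot of this ratio by library.

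**Figure D4:**
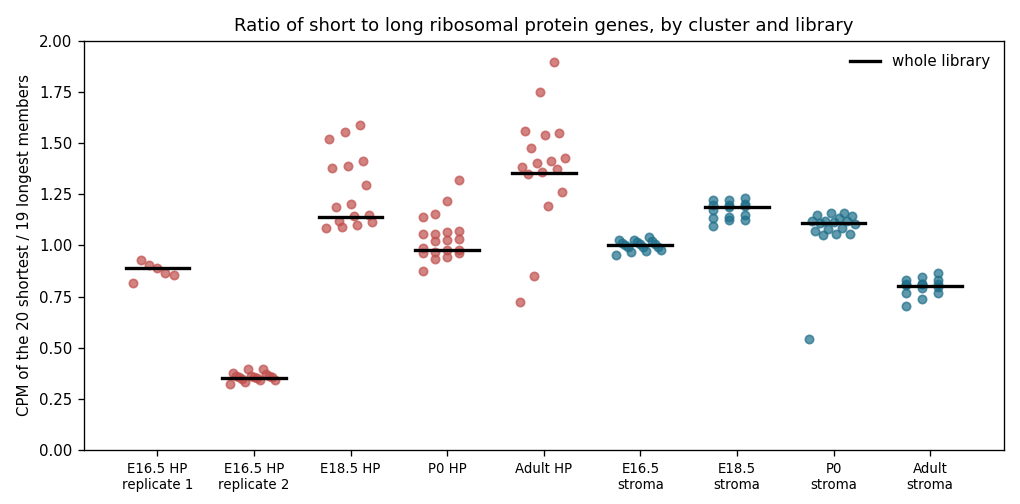
Ratio of the summed CPM of the 20 shortest to the 19 longest members by coding length (vertical axis) in each cluster (points) and in the whole library (black lines), for the 9 libraries. All clusters of E16.5 HP replicate 2 lie between 0.324 and 0.396, below each cluster of the other libraries.

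Adult libraries also differed from P0 libraries by length. In stroma all 4 length groups were lower in the adult, and the median log2 ratio was -1.33 in the shortest and -0.88 in the longest group. In HPs it was 0.20 in the shortest and -0.34 in the longest. The Spearman correlation with coding length over 78 members was 0.57 in stroma and -0.61 in HPs, and over other genes 0.16 and -0.15. Other genes of at most 400 nt had medians of -0.18 in stroma and 0.02 in HPs. Those of 400 to 600 nt had 0.11 and -0.24. E18.5 HPs against P0 HPs, a pair without an adult library, gave -0.66. The cause of these differences was not tested.

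Differences between compartments were tested with edgeR over 18392 genes, with stage as covariate and libraries as replicates. Each library was 1 pool, so p-values measure the spread between these libraries. The fit left 4 residual degrees of freedom, which hold the E16.5 HP pair and compartment differences that change with stage. The members' share changed in that way, as given above, so few calls among members do not show equal levels. HPs were higher than stroma in 25.7% and lower in 31.9% of genes, whereas only 2 of the 81 members were higher and 1 was lower. All 3 are low copies. Members had a median log2 fold change of 0.29, with 75 of 81 above 0, and all genes one of -0.05. The members' median was -0.0088 without adult stroma, 0.0082 without adult HPs and 0.085 with cells thinned to 1000 UMIs, so its direction rests on the adult libraries. DESeq2 called 27.3% of genes higher and 36.6% lower, with 2 members higher and 1 lower.

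Rpl3l, a copy of Rpl3 known from heart and skeletal muscle, had 0.286 and 0.428 CPM in the E16.5 HP pair, 0.792 in E18.5, 1.13 in P0 and 0.939 in adult HPs. In stroma it had 0.0171, 0.0445, 0.108 and 0.457 CPM from E16.5 to the adult, between 2 and 42 UMIs. At each stage the HP value was the higher. HPs were 8.70-fold higher (log2 3.12, SE 0.67, adjusted p = 0.0069 by edgeR's quasi-likelihood test with Benjamini-Hochberg adjustment). Its highest cluster was E18.5 Mono1iii, with 66.3 CPM from 25 of the library's 51 UMIs. Rpl3 itself stood between 1245 and 4367 CPM.

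Rpl39l, the copy of Rpl39 used in the testis, had 6.37 and 6.07 CPM in the E16.5 HP pair, 2.91 in E18.5, 1.48 in P0 and 0.273 in adult HPs (16 UMIs). Stroma had 10.8, 11.5, 10.4 and 18.8 CPM from E16.5 to the adult. The 2 compartments did not overlap, and HPs were lower by a log2 fold change of -2.74 (SE 0.80, adjusted p = 0.023 by edgeR's quasi-likelihood test with Benjamini-Hochberg adjustment). By cluster it was highest in E16.5 F6 with 51.8 CPM (118 UMIs) and in adult CARs with 41.0 CPM (123 UMIs). It was the only member of at least 10 CPM in stroma that was higher in the adult than in each perinatal library.

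Rpl7l1, whose protein acts in the assembly of the large subunit, had 116, 140, 132, 132 and 75.1 CPM in the HP libraries in order of stage and 91.9, 82.4, 67.7 and 67.4 CPM in stroma. Adult HPs thus overlapped with stroma. The log2 fold change was 0.51 (SE 0.18, adjusted p = 0.041 by edgeR's quasi-likelihood test with Benjamini-Hochberg adjustment), and the call was lost when E16.5 HP replicate 2, E18.5 HPs, P0 HPs or any 1 of the stromal libraries was left out, with a log2 fold change of 0.43 to 0.57 over all 9 libraries left out in turn. It was also lost with RLE size factors (log2 0.41) and with each cell thinned to 1000 UMIs (log2 0.27). Rpl39l lost its call without the E18.5 or the P0 library of either compartment, with log2 fold changes of -2.63 to -3.04 and adjusted p of 0.054 to 0.083 by edgeR's quasi-likelihood test with Benjamini-Hochberg adjustment.

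The remaining copies did not pass the test. Rpl22l1, which can replace Rpl22 on the ribosome, was at 52.0%, 61.4%, 55.4%, 58.6% and 42.8% of Rpl22 in the HP libraries in order of stage, and at 97.7%, 89.3%, 92.5% and 73.7% in stroma. The 2 sets did not overlap. By cluster it ran from 11.7% in E18.5 Bas1 to 77.8% in E16.5 TCell6 among HPs, and from 36.8% in adult AECs to 119% in P0 CF1 among stroma. Rps27l, a p53 target, was at 27.5% to 44.6% of Rps27 in HPs and 20.2%, 11.9%, 11.1% and 32.8% in stroma, so adult stroma lay inside the HP range. Rpl7l1 remained at 2.83% to 4.90% of Rpl7 and Rpl36al, outside the naming rule, at 14.3% to 27.3% of Rpl36a. Reads of a copy and its parent can be shared where their ends are alike, so these ratios carry that uncertainty.

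**Figure D5:**
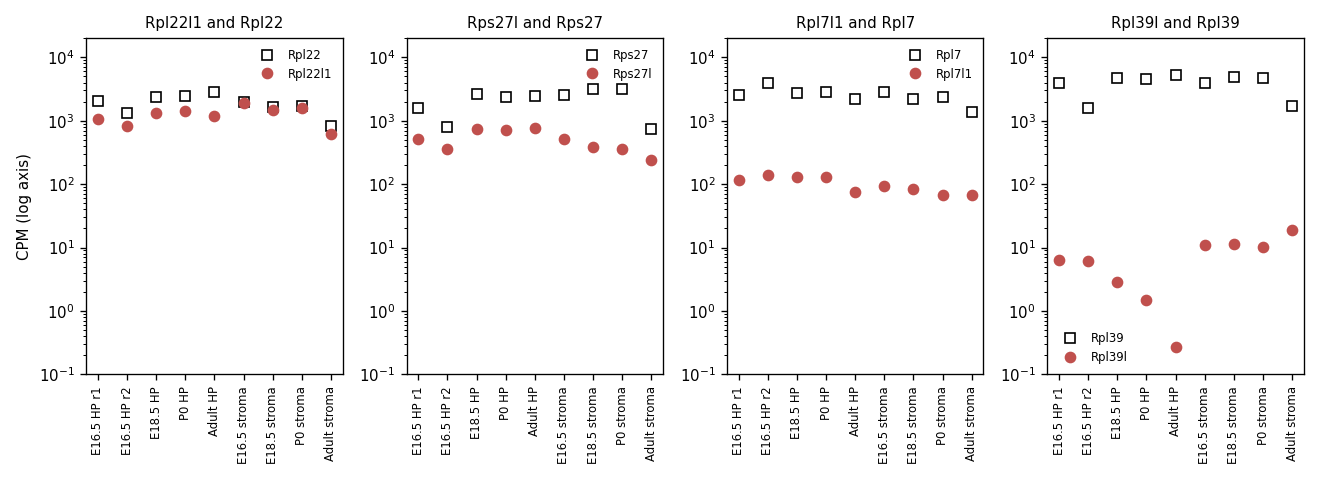
Level (CPM, log axis) of 4 copies (filled circles) and of the genes they are copies of (open squares) in the 9 libraries. Rpl39l falls from 6.37 to 0.273 CPM over the HP libraries and stands at 10.4 to 18.8 CPM in stroma, while Rpl22l1 is closest to its parent in stroma.

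The adult libraries were compared with the perinatal ones with compartment as covariate. With 1 adult library per compartment, 0.473% of genes were higher and 0.114% lower in the adult, and no member passed in either direction by edgeR. At an unadjusted p under 0.05 there were 6 members and 2818 genes. The members' median log2 fold change was -0.36 against 0.02 for all genes, with 72 of 81 below 0. DESeq2 called 4.41% of genes higher and 3.11% lower, among them 4 lower members, Rpl4, Rpl5, Rpl12 and Rpl7l1. This common term averages compartments that moved apart, and without the adult stromal library the members' median was 0.13, without the adult HP library -1.26.

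Within stroma, 79 of 80 members were lower in the adult than in each of the 3 perinatal libraries, against 30.8% of genes, and 1, Rpl39l, was higher, against 47.9% of genes. The log2 ratio of adult to perinatal mean had a median of -1.14 and reached -2.11 in Rps29, which had 4119, 5022 and 4764 CPM in perinatal and 1074 CPM in adult stroma. Rps27 (2523, 3182 and 3183 against 741 CPM) and Rpl35 (1846, 1766 and 2043 against 499 CPM) were almost as low. Within HPs, 29 of 79 members were above every perinatal library, against 14.9% of genes, and 21 below, against 42.4%. All 29 were below every perinatal library in stroma, an order seen in 5.14% of genes, and the opposite order, in 21.3% of genes, was found in none of the 79. By the gap of 1 library to the rest over the range, 1 of 79 members had a library apart among HPs, against 7.64% of genes, and 7 of 80 among stroma, against 15.2%. Rps29 had 7848 CPM in adult HPs against 1820 to 6330 in the perinatal ones, and Rpl35 had 2975 against 740 to 2053. Rpl5, which binds 5S ribosomal RNA and MDM2, was the reverse, with 1419 CPM against 2290 to 2781. Differences in the mixture of cells and within cells are not separated in these sums.

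Whether the adult difference itself differed between HPs and stroma was tested as an interaction over 19297 genes. No gene was higher (0%) and 1 was lower (0.00518%), and that gene, Fscn1, named after its value was seen, is no member. By DESeq2, 4.57% of genes were higher and 6.14% lower, with 42 members higher and 1 lower. Under edgeR 54 of 81 members and 3850 of the genes had an unadjusted p under 0.05, and the lowest adjusted p of a member was 0.103. The members' median was 1.54, with 78 of 81 above 0, and that of all genes -0.12. The call for members therefore depends on the tool, and there was 1 adult library in each compartment.

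The largest interaction estimates were those of Rps29 (log2 3.33, SE 0.92), Rpl35 (3.15, SE 0.74), Rpl37a (3.01, SE 0.77), Rps28 (2.98, SE 0.94) and Rps27 (2.74, SE 0.81), with adjusted p between 0.107 and 0.155 by edgeR's quasi-likelihood test with Benjamini-Hochberg adjustment. The lowest were Rpl39l (-4.41, SE 1.12) and Rpl3l (-2.14, SE 1.38). The estimates fell with coding length, with a Spearman correlation of -0.79 over 78 members. Medians were 2.21 in the 20 shortest and 0.89 in the 19 longest members, and 20 of 20 and 19 of 19 were above 0. Adult HP and adult stroma also had opposite short to long ratios, 1.35 and 0.799.

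Members tied to Diamond-Blackfan anaemia, 21 genes with Rps14 of the 5q- syndrome included, held no called gene in any of the 3 edgeR comparisons, with medians of 0.23 between compartments, -0.30 in the adult and 1.88 in the interaction. Rps19, the gene most often mutated in the disease, had 3464 and 3052 CPM in the E16.5 HP pair, 4387, 4647 and 4705 CPM from E18.5 to adult HPs, and 4520, 3537, 3841 and 1614 CPM in stroma. Rpl11, which like Rpl5 binds MDM2, had 3302, 4137, 3606, 4012 and 4334 CPM in HPs and 4045, 2860, 3209 and 1530 CPM in stroma. Both were lowest in adult stroma and, among HPs, highest in the adult.

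Of the 6 measured genes of the ribosome or its surroundings outside the naming rule, none passed in any of the 3 comparisons. Rpsa of the small subunit had 8223 CPM in E16.5 HP replicate 2 and 4974 to 6609 in the other HP libraries, and 4489, 3671, 3812 and 2628 CPM in stroma. Fau, Rpl36al and Rps27rt were also lowest in adult among stromal libraries, and so was Rack1, a scaffold on the small subunit (1086 CPM against 2099 to 2478 in perinatal stroma).

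Lists of genes around the ribosome were read from the same fit between compartments, in which 25.7% of all genes were higher in HPs and 31.9% lower. Of 42 genes of ribosome biogenesis, 33 were higher in HPs and 1 lower, with a median log2 fold change of 1.12. Wdr12 of the large-subunit assembly complex (log2 2.41, SE 0.30), Nhp2 (1.92, SE 0.31) and Dkc1 (1.69, SE 0.29) of the H/ACA particles that modify ribosomal RNA and Polr1b, a subunit of RNA polymerase I (1.90, SE 0.25), were among the highest, with adjusted p between 0.000715 and 0.00271 by edgeR's quasi-likelihood test with Benjamini-Hochberg adjustment. Of 36 translation factors, 10 were higher, as Eif2s1 and Pabpc1, and 3 lower, Eif1a, Tpt1 and Eif4a2, so the share called higher was near that of all genes. Of 12 regulators of TOP messages, 4 were higher, Larp1 (log2 1.13, SE 0.21), Eif4ebp2, Tia1 and Rptor, and 1 lower, Rheb. Of 14 genes of the p53 list, which holds Trp53 itself beside its targets, 3 were higher, Bax, Pmaip1 and Trp53, and 8 lower, Cdkn1a by a log2 fold change of -2.77 (SE 0.50). In the adult and interaction comparisons no gene of these lists passed.

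The genes whose levels followed the members' summed share most closely were looked up across the 134 clusters. By the Spearman correlation of CPM with the share over the 2664 genes of at least 50 CPM, the 10 nearest genes were Snrpf (0.83), Snrpd2 (0.80), Aimp1 (0.79), Nop10 (0.79), 2810004N23Rik (0.77), Lsm6 (0.77), Npm1 (0.76), Snrpg (0.76), Lsm7 (0.76) and Cox7b (0.75), and the median over all those genes was 0.09. At the other end, the 10 lowest ran from -0.66 for Malat1 to -0.73 for Reep3, and Malat1 had -0.51 over the HP clusters and -0.66 over the stromal ones. Snrpf, Snrpd2 and Snrpg encode parts of the Sm ring of spliceosomal particles, Lsm6 and Lsm7 of the related Lsm ring, Nop10 of the H/ACA particles and Npm1 is a nucleolar chaperone. The clusters share 9 libraries and their depths, and the share is part of the same total as each CPM, so these are descriptions. Members themselves followed the sum of the other members with a median correlation of 0.77, and 76 of 79 were above 0.5. The lowest was Rps27 at 0.30.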

How the data were processed

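Cells were sequenced by the authors with Chromium 3′ v3.1 chemistry, with antibody tags that are not used here. Per the labels, reads were processed with Cell Ranger 3.1.0, R 4.0 and Seurat 3.1.5 on mm10 (submitters' processing notes). The authors deposited raw counts of UMIs per gene and cell, for cells that had passed filters on mitochondrial content and depth, the latter against doublets. No doublet caller was run here. The deposited stromal cells may also be those left after the removal of blood cells that the paper describes. A deposited table gave each cell's library, stage, cluster code and phase, and the mitochondrial content as a fraction, used here only to describe libraries.

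Libraries were grouped by compartment and stage from the sample labels. Cells with fewer than 1000 UMIs, 3970 in all, were left out. Counts were summed per library and, for clusters of at least 20 cells, per cluster, and scaled to CPM. Log2 ratios between libraries or code groups were taken with 1 CPM added, which understates changes of low genes. The adult differences flagged for a closer look had no CPM added. Shares carry exact binomial 95% intervals. Library sums were fitted with edgeR 4.0.16 in R 4.3.3 (TMM, filterByExpr, quasi-likelihood F test, Benjamini-Hochberg over all genes, adjusted p threshold 0.05), a procedure tested on simulated data, with DESeq2 1.42.0 as an alternative. Sums, shares and plots were made in Python 3.11.15 (scipy 1.17.1, pandas 2.3.3, numpy 2.4.6, matplotlib 3.10.9). Coding lengths came from GENCODE on GRCm38 and start windows from RefSeq.

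Members and gene lists were chosen with earlier results of these data known. The rule named the 5 members with the largest called change each way, the 5 highest and lowest by level, the 5 most and least variable, the copies, up to 4 genes per list, the 10 nearest genes and the 5 highest and lowest clusters per compartment. The largest uncalled interaction estimates were named after their values were seen. Alternatives changed scaling, filters, cells, tool, libraries and the definition of the share. TMM with the members in or out of the scaling is among them, since they make up so much of each library. Interval widths cover counting error only, and the depth of adult HPs, with a median of 8948.5 UMIs per cell, was the lowest. Some results the rule would name are not reported here.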

Additional observations from a re-analysis of the deposited data

Results flagged for a closer look

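For 21 results among those named in the report, the adult library lay above every perinatal library in 1 compartment and below every one in the other. They are given as the log2 ratio of adult to the perinatal mean in HPs minus that in stroma, without an added CPM. These differences were not tested in this form, and in the edgeR interaction none of the members passed. The values were 3.01 for Rps29, 2.83 for Rpl35, 2.68 for Rpl37a and 2.66 for Rps28. Rpl35a had 1.94, Rpl36a 1.90, Rpl39 1.89, Rpl27 1.87, Rps27a 1.60, Rps19 1.57 and Rpl22 1.54. Values of 1.43 for Rps24, 1.42 for Rpl23, 1.34 for Rpl11, 1.18 for Rps27l, 1.14 for Rps10 and 1.06 for Rps16 were lower. Rpl39l had -4.73, the only one of them below 0, and this value rests on 16 UMIs in adult HPs. With 1 CPM added, its log2 ratio was -2.03 in HPs and 0.73 in stroma. Genes outside the naming rule had 2.50 for Rps27rt and 1.53 for Rpl36al. The short to long ratio had 1.15. Of 79 members with at least 10 CPM in both compartments, 29 lay higher in adult HPs and lower in adult stroma, with values of 1.06 to 3.01, against 5.14% of genes. None of them had the opposite order, against 21.3% of genes, and Rpl39l was under that level in HPs.

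A single library lay far from the rest of its compartment for 4 of the named genes, by the ratio of its gap to the whole range. These were Rpl39l, with 18.8 CPM in adult stroma, Rpl37a, with 1187 CPM, and Rpl36a, with 707 CPM there, and Fau, with 3154 CPM in E16.5 HP replicate 2. At 10 CPM or more, 7 of 80 members had such a library in stroma, in each case the adult one, against 15.2% of genes, and 1 of 79 in HPs, against 7.64%. For libraries of the same kind, chance would put about 1 in 20 groups past this limit, but these libraries differ in stage. Over all genes it was passed more often, as given, so passing it does not by itself set a gene apart.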

How the results depend on the processing

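The number of genes that differed between HPs and stroma ranged from 7482 to 10899 with 1 library left out. Members called there ranged from 1 to 3 and their median log2 fold change from -0.0088 (without adult stroma) to 0.59, and Rpl3l was called in all 17 alternatives. For adult against perinatal, DESeq2 called 1320 genes and 4 members. Leaving out a library gave 11 genes (without E18.5 stroma) to 762 (without adult HPs), 0 to 2 members (Rps18 and Rps14, without adult HPs), and a median of -1.26 to 0.13, the latter without adult stroma. For the interaction, DESeq2 called 1856 genes and 43 members, edgeR 0 genes with all deposited cells and 0 with cells thinned to 1000 UMIs, and 0 to 1 genes and 0 members with a library left out; neither adult library could be left out there. Library size alone shifted the interaction median of all genes by -0.298 and that of members to 1.23. The adult minus perinatal share of HPs was -0.155 points as a mean over cells, 4.64 without mitochondrial and haemoglobin genes and Gm42418 in the total, and 1.71 or 2.05 points without either E16.5 replicate. The adult minus perinatal share of stroma and the HP minus stroma share moved by less than their spread under each alternative. The short to long difference of the E16.5 replicates had the same direction with annotated transcript length, chosen after seeing the data. The cause of these changes was not tested. HPs and stroma were matched by stage in their fit. No paired analysis was possible by replicate number because only E16.5 HPs have more than 1 mRNA library, and the shared numbers mark mRNA and antibody libraries of the same cells.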
